A study of Homo sapiens with 5 samples.

Results

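The genes described here are 9 enzymes that make non-essential amino acids other than serine: ASNS, ASS1, GPT2, CTH, CBS, GOT1, GOT2, PYCR1 and ALDH18A1. They were chosen by name, and all 9 were among the 11976 genes of the authors' deposited table. That table compared bulk RNA-seq libraries of HUDEP-2 cells, a cell line of immortalised erythroid progenitors obtained from umbilical cord blood, in which adult hemoglobin predominates. The groups were 3 libraries labelled ERF knockout, ERF being a repressor of the ETS family, and 2 labelled wild type, whose titles carry the letters SCR, which no label explains. No treatment or time is given, the name of the table carries the unexplained abbreviation Pre, and no source used here says whether the knockout cells were 1 clone or a mixed culture. Nothing in the labels says that replicate libraries stem from different cultures, and the p-values reflect the spread among these libraries alone, part of which may be technical.

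For each gene the table holds the log2 fold change, the expression averaged over all 5 libraries as log2 CPM (reads of the gene scaled to a common library total), and the F statistic, p and adjusted p of the authors' quasi-likelihood F test. There were 0 columns of values per library, so levels in single libraries, their SD and the depth are not shown. A gene was called when its deposited adjusted p was below 0.05. Standard errors (SE) and 95% intervals were derived from the fold change and F.

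The table does not name its reference group, so the sign had to be set. It was set so that the γ-globin gene HBG2 is higher in the knockout, because the title of the series links inactivation of ERF to renewed γ-globin expression. HBG2 then stood at 1.88 (SE 0.22) on the log2 scale in the authors' deposited table. ERF, the targeted gene, went against its label under this sign: the authors' deposited table gave 0.89 (SE 0.07, adjusted p = 6.44e-06). As deposited, the sign is the opposite one, and every "lower" below becomes "higher" in the libraries labelled knockout. What holds under either sign is that the 7 called enzymes were low in the group where HBG2 and ERF were high. All directions below are for the libraries labelled knockout under the sign set through HBG2.

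The enzymes belong to short routes that start from glutamate, aspartate, serine or pyruvate. Several are textbook targets of ATF4, the transcription factor whose translation rises when amino acids are scarce or when eIF2α is phosphorylated. ATF4 binds with C/EBP partners at a composite element, the C/EBP-ATF response element (CARE), and the element of the ASNS promoter is a classic example. Erythroid precursors have a high demand for amino acids because they fill themselves with globin.

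The sequences before the gene starts are shown first, because several of these enzymes are known for control through a shared element. RefSeq promoter sequences (GRCh38.p14) matched 7 of the 9 enzymes by symbol, with 11 annotated starts, and the 250 bases before each start were searched on both strands. GPT2 and PYCR1 had no entry. The motifs were the CARE core TGATGNAA, the ETS core CCGGAAGT and the E-box CACGTG, a palindrome bound by basic helix-loop-helix factors. The windows of ASNS and GOT1, which hold the CARE core, are printed with that of GOT2, the isozyme of GOT1. Those of ASS1 and ALDH18A1 hold the E-box and belong to enzymes far apart in fold change. Each reads 5′ to 3′ toward the gene, with motif matches in capitals:

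ASNS, chr7:97872409-97872658, minus strand: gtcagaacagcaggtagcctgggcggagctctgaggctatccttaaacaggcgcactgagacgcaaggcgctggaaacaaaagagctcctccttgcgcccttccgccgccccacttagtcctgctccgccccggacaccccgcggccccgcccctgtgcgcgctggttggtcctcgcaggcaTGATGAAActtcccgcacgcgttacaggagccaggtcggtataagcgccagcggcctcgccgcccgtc

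GOT1, chr10:99430625-99430874, minus strand: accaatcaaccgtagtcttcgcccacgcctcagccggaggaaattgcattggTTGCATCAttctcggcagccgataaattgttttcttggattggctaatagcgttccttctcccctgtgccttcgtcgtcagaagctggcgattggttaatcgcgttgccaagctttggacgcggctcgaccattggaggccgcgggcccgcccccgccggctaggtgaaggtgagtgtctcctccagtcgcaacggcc

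GOT2, chr16:58734317-58734566, minus strand: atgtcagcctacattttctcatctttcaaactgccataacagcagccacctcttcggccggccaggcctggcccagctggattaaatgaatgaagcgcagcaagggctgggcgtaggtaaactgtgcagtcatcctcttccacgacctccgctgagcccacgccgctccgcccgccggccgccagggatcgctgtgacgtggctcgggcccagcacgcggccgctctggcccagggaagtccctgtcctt

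ASS1, chr9:130444711-130444960, plus strand: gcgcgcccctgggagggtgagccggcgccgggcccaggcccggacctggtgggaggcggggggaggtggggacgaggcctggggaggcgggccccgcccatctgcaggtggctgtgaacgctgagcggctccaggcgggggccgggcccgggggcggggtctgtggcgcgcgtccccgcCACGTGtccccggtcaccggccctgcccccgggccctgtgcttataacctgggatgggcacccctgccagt

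ALDH18A1, chr10:95656712-95656961, minus strand: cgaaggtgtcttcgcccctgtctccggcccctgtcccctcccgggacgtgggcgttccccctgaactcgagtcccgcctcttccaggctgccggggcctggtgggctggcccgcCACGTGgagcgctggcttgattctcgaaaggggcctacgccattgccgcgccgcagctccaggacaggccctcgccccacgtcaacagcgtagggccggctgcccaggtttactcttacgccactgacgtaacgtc

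The CARE core was found in 2 of the 11 windows, those of ASNS and GOT1. In ASNS it read TGATGAAA at positions -68 to -61, counted from -1 at the base before the start. In GOT1 it lay on the opposite strand at -198 to -191, where the gene's own strand reads TTGCATCA. Of all 35116 windows of the same length, 3.14% held this core, as did 1.56% of the windows of genes in the table. The E-box was found at -71 to -66 in ASS1 and at -136 to -131 in ALDH18A1, each in 1 window, against 6.34% of all windows and 8.7% of those of genes in the table. The ETS core was found in 0 of the 11 windows, against 3.42% of all windows and 6.62% of those of genes in the table. No matches overlapped. A second annotated start of ASNS and of ASS1, the 3 of CBS, and CTH and GOT2 held none of these letters in the bases searched, which says nothing about binding elsewhere.

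**Figure D1:**
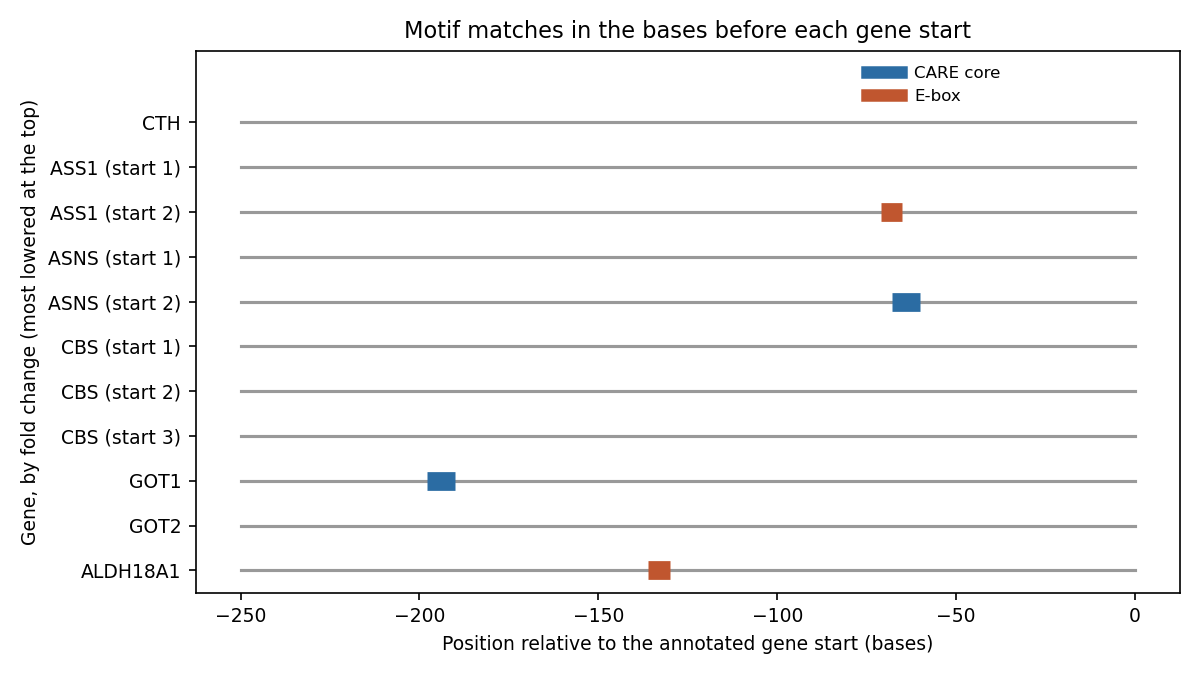
Matches to the CARE core (blue) and the E-box (orange) in the 250 bases before each annotated start; the x axis is the position in bases from the start, and each grey line is 1 window, with genes ordered by fold change. ASNS and GOT1 each hold 1 CARE core, and ASS1 and ALDH18A1 each hold 1 E-box.

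Of the 9 enzymes, 7 were called lower, 0 higher and 2 were not past the threshold (edgeR quasi-likelihood F test; also 0 higher at an unadjusted p below 0.05). Among all genes 50.9% were called, 25.9% lower and 24.9% higher, so a call on its own is common. Among the 8466 genes at or above the mean log2 CPM of ASS1, the lowest of the 9 enzymes, 25.5% were called lower, a background added after the values had been seen. The size of the changes was less common: 4 of the 9 enzymes were called and at least 2-fold lower, against 2.26% of all genes. The median log2 fold change of the 9 was -0.88, beside 0.00 over all genes. The enzymes had been picked by name with earlier results of these data known, so these counts describe them and carry no list test.

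CTH, cystathionine γ-lyase, releases cysteine from cystathionine and had the lowest value of the 9. In the authors' deposited table it stood at -3.21 (SE 0.09, 95% interval -3.41 to -3.01, adjusted p = 5.38e-09), which is 9.27-fold lower. It ranked 9 from the bottom of all genes. CBS, cystathionine β-synthase, makes the cystathionine that CTH cleaves, and it was 1.84-fold lower, at -0.88 (SE 0.05, interval -0.98 to -0.77, adjusted p = 4.97e-07) in the authors' deposited table. Both enzymes of this route from homocysteine and serine to cysteine thus passed the test, by unequal amounts: the difference between them was -2.33 (interval -2.56 to -2.11).

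GPT2, the mitochondrial alanine transaminase, was 7.19-fold lower, at -2.85 (SE 0.07, interval -3.00 to -2.69, adjusted p = 3.15e-09) in the authors' deposited table. Its cytosolic isozyme GPT was called lower by much less, at -0.28 (SE 0.09, adjusted p = 0.0309) in the authors' deposited table. The difference between these isozymes was -2.57 (interval -2.83 to -2.31).

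ASS1, argininosuccinate synthase, joins citrulline to aspartate and was 6.41-fold lower, at -2.68 (SE 0.09, interval -2.87 to -2.49, adjusted p = 1.22e-08) in the authors' deposited table. ASL, which splits the product into arginine and fumarate, had a log2 fold change of 0.00 (interval -0.17 to 0.18, adjusted p = 0.968) in the authors' deposited table. These consecutive enzymes differed by -2.68 (interval -2.94 to -2.43).

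ASNS, asparagine synthetase, moves an amide nitrogen from glutamine to aspartate. It was 3.91-fold lower, at -1.97 (SE 0.06, interval -2.09 to -1.84, adjusted p = 5.39e-09) in the authors' deposited table. ASRGL1, which hydrolyses asparagine and isoaspartyl peptides, was higher, at 0.54 (SE 0.10, adjusted p = 0.0013) in the authors' deposited table. Its mean was a low 2.51 log2 CPM.

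GOT1, the cytosolic aspartate transaminase, was 1.53-fold lower, at -0.61 (SE 0.05, interval -0.71 to -0.51, adjusted p = 4.28e-06) in the authors' deposited table. GOT2, its mitochondrial counterpart in the malate-aspartate shuttle, was not past the threshold, at -0.03 (SE 0.05, interval -0.15 to 0.09, adjusted p = 0.66) in the authors' deposited table. The interval of GOT2 excludes a change as large as that of GOT1, and the difference between them was -0.58 (interval -0.73 to -0.42). The compartment of the lower isozyme was not the same in both transaminase pairs: it was the mitochondrial form for alanine and the cytosolic form for aspartate.

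The proline route differed between its ends. ALDH18A1, which turns glutamate into pyrroline-5-carboxylate, was not past the threshold, at 0.05 (SE 0.05, interval -0.05 to 0.16, adjusted p = 0.357) in the authors' deposited table. PYCR1, which reduces that product to proline in mitochondria, was 1.59-fold lower, at -0.67 (SE 0.05, interval -0.77 to -0.57, adjusted p = 2.49e-06) in the authors' deposited table. PYCRL, a cytosolic isozyme, was higher, at 0.34 (adjusted p = 0.0097) in the authors' deposited table. PYCR1 differed from ALDH18A1 by -0.73 (interval -0.87 to -0.58) and from PYCRL by -1.02 (interval -1.24 to -0.79). The 6 pairs of isozymes or neighbouring enzymes compared here were chosen after the values had been seen, and their intervals treat the 2 genes of a pair as independent.

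**Figure D2:**
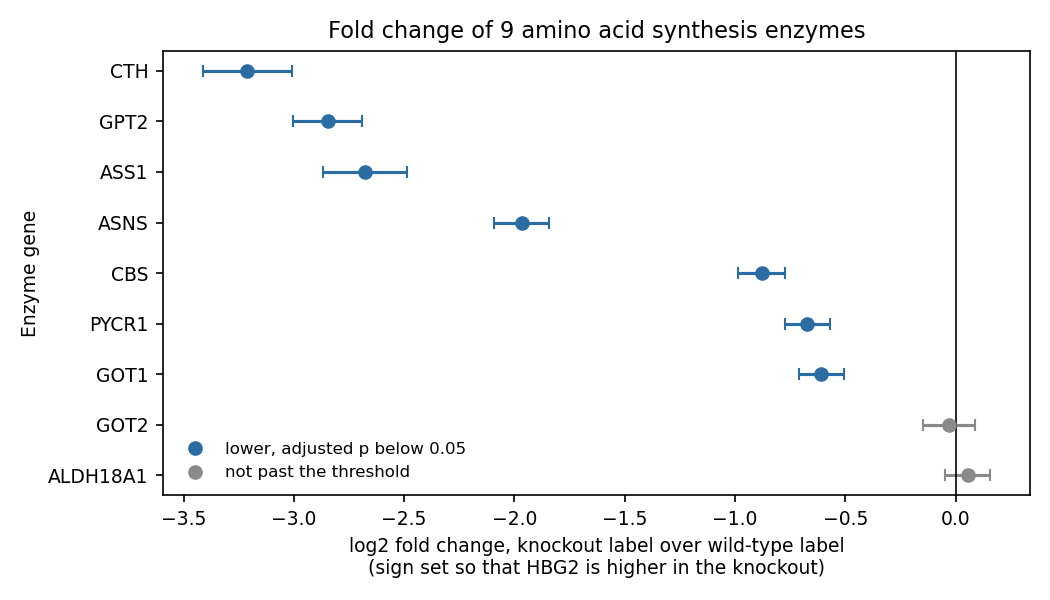
The log2 fold change of each enzyme (x axis, knockout label over wild-type label, sign set through HBG2), as points with derived 95% intervals. CTH, GPT2, ASS1 and ASNS lie between -3.21 and -1.97, CBS, PYCR1 and GOT1 between -0.88 and -0.61, and the intervals of GOT2 and ALDH18A1 include 0.

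The 9 enzymes thus differed in fold change, though not every pair of neighbours in the order was told apart by the intervals. Intervals overlapped between GPT2 and ASS1, between CBS and PYCR1, between PYCR1 and GOT1, and between GOT2 and ALDH18A1. Every other pair of neighbours in the order had intervals that did not overlap. Those of CTH and GPT2 nearly met, with bounds of -3.0105 and -3.0035, and the intervals are approximate. By rank among all 11976 genes, GPT2 was 14 from the bottom, ASS1 18 and ASNS 36, whereas CBS was 382, PYCR1 685 and GOT1 826.

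The order by abundance matched the order by fold change only in part. Per kilobase of exon (GENCODE 29), ASNS had the highest mean level over all libraries, 55.1 CPM per kb, followed by ALDH18A1 at 40.5, CBS at 33.4, GOT2 at 30.3 and PYCR1 at 29.3. GOT1 stood at 13.3 CPM per kb, CTH at 6.41, GPT2 at 4.15 and ASS1 at 3.13. The 3 most lowered enzymes were thus the 3 least abundant per kb, while ASNS was at once the most abundant and the fourth most lowered. These levels have no error, because only a mean over libraries was given, and they average both groups.

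**Figure D3:**
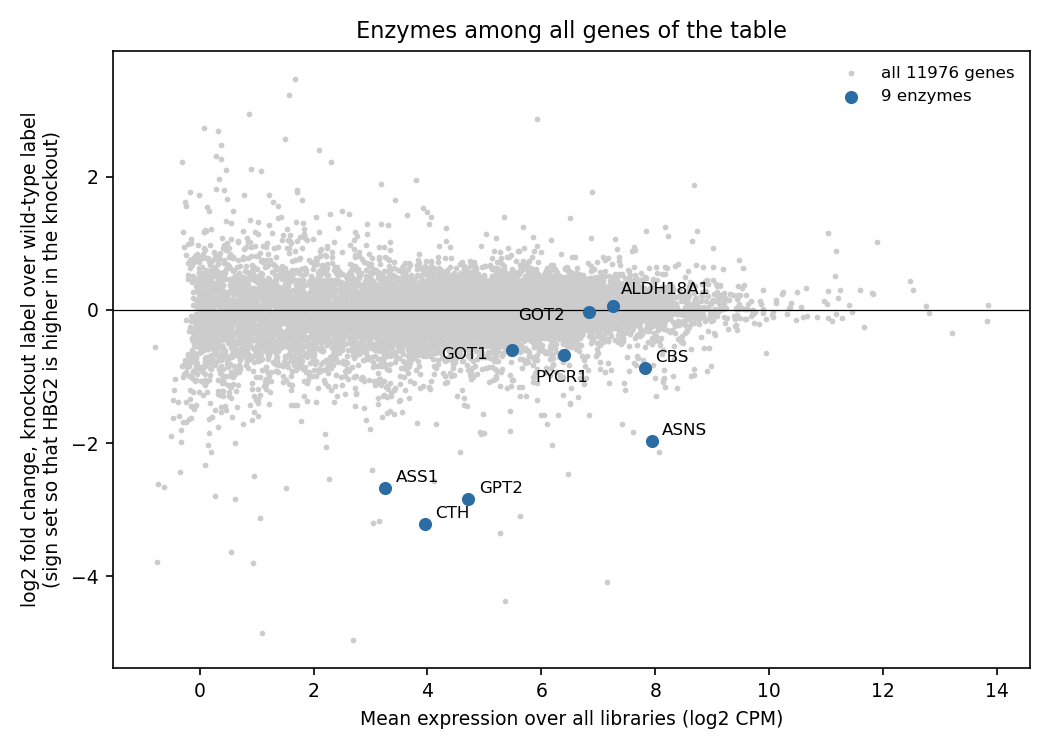
Every gene of the table by mean expression (x axis, log2 CPM over all libraries) and log2 fold change (y axis, sign set through HBG2), with the 9 enzymes in blue. ASNS, CTH, GPT2 and ASS1 lie below most genes of like expression, and GOT2 and ALDH18A1 lie near 0.

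Reads could be shared for some of the enzymes. GENCODE 29 lists 11 pseudogenes named after ASS1, 4 after ASNS and 4 after GOT2, none of them among the genes of the table, and exons of other genes overlap those of ASNS, GOT1, GOT2 and PYCR1. No source used here states whether counting used the strand, so these values are uncertain to that extent.

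Other genes of the same routes were called in both directions. Of 45 measured further genes in 4 branches, 12 were lower and 9 were higher, and the other 24 missed the threshold. These shares, 26.7% and 20%, lie near the 25.9% and 24.9% of all genes, and the median was -0.03. In the branch of alanine, aspartate, asparagine and glutamate, 4 of 9 measured genes were lower and 1 higher, with a median of -0.17. GLUL, glutamine synthetase, was 1.57-fold lower, at -0.65, and GLUD1, glutamate dehydrogenase, stood at -0.27 in the authors' deposited table. ADSL, which acts on adenylosuccinate, stood at -0.17 there.

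In the arginine and urea cycle branch, 0 of 7 measured genes were lower (also 0 at an unadjusted p below 0.05) and 1 was higher, with a median of 0.03. Over all genes 25.9% were lower and 24.9% higher. The higher gene was ARG1, arginase 1, at 0.63 and a low mean of 0.48 log2 CPM in the authors' deposited table. ASS1 was thus the one gene that passed the test as lower among the urea cycle genes measured here. Beside it, these were only ASL, ARG1 and ARG2. ARG2, named after its value was seen, also had a low mean, 0.38 log2 CPM. CPS1, OTC and NAGS, which act before ASS1 in liver mitochondria, were not analysed here.

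Of 18 measured genes of the methionine cycle and of cysteine use, 7 were lower and 2 higher, with a median of -0.12. CHAC1, which degrades glutathione, was 20.8-fold lower, at -4.38, in the authors' deposited table. CSAD, an enzyme of taurine synthesis, stood at -0.63 and ETHE1, a mitochondrial sulfur dioxygenase, at -0.60 in the authors' deposited table. MTRR, which keeps methionine synthase active, was higher at 0.36 there. Apart from CHAC1, no gene of this list reached a 2-fold change.

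In the proline and ornithine branch, the test called 5 of 11 measured genes higher and 1 lower, against 24.9% and 25.9% of all genes. The median of the branch was 0.13. OAT, which links ornithine to pyrroline-5-carboxylate, stood at 0.09 (adjusted p = 0.153) in the authors' deposited table.

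**Figure D4:**
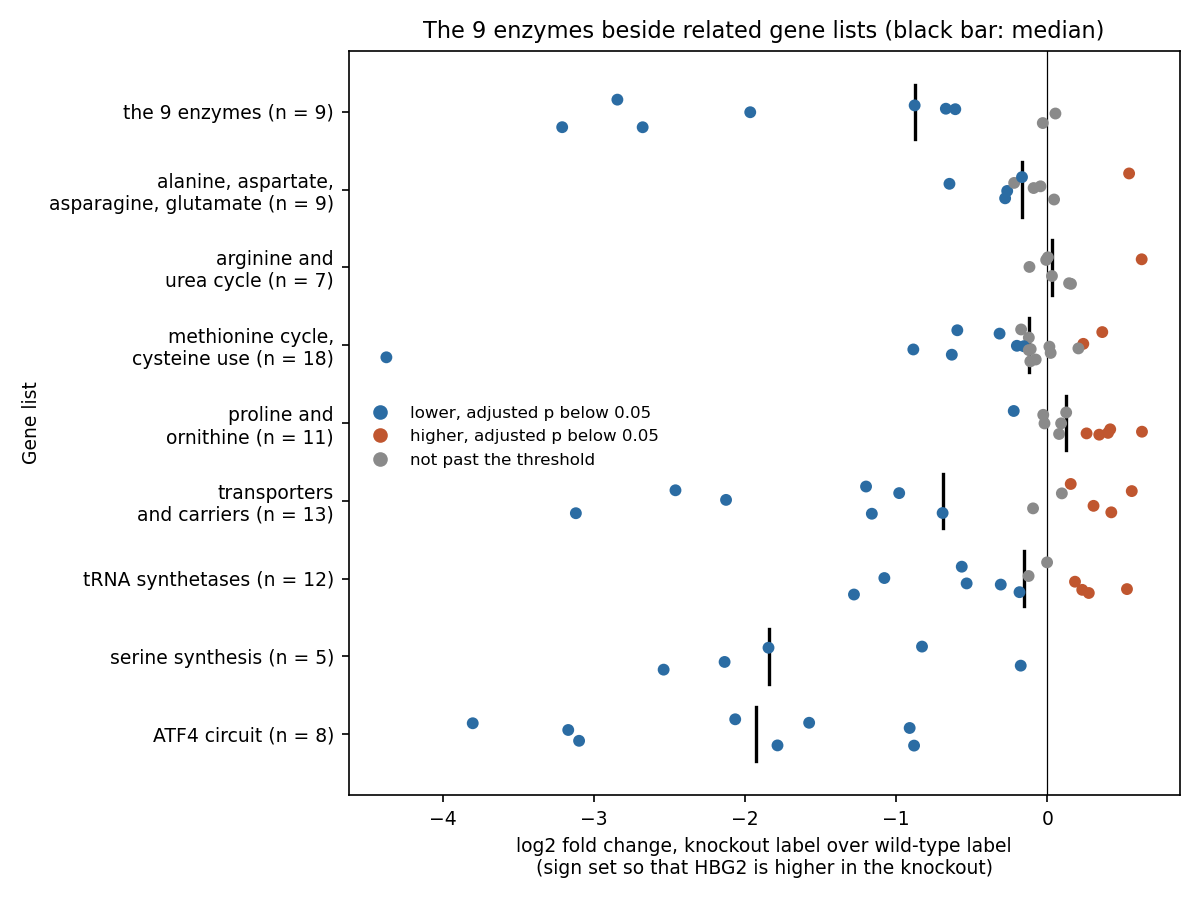
Log2 fold changes (x axis, sign set through HBG2) of the 9 enzymes and of related gene lists (y axis); each point is a gene, black bars are medians, and colours give the call. The medians of the 4 branches of related genes lie between -0.17 and 0.13, against -0.88 for the 9 enzymes, -1.85 for serine synthesis and -1.93 for the ATF4 circuit.

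Most measured importers of the same amino acids were lower beside the enzymes. Of 9 measured transporters of the plasma membrane or lysosome, 7 were lower and 2 higher, with a median of -1.16. Among all genes, 25.9% were lower and 24.9% higher. The 2 higher were SLC36A1, at 0.16 (adjusted p = 0.0148), and SLC36A4, at 0.31 (adjusted p = 0.0245), in the authors' deposited table. Both were chosen after their values were seen. SLC38A1, a glutamine and alanine transporter at a low mean of 1.05 log2 CPM, stood at -3.12 in the authors' deposited table. SLC7A11, which imports cystine, was 5.51-fold lower at -2.46, and its partner SLC3A2 stood at -1.20 in the authors' deposited table. SLC1A4, a carrier of alanine, serine and cysteine, stood at -2.13, and SLC38A2, a carrier of neutral amino acids, at -1.16 in the authors' deposited table. SLC7A1, the arginine importer, chosen after its value was seen, stood at -0.69 there. For cysteine, RNA of CTH, CBS and the cystine importer SLC7A11 was thus lower, and for arginine that of ASS1 and SLC7A1 was. Synthesis and import themselves were not measured.

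The measured mitochondrial carriers of glutamate, aspartate and ornithine were not called lower. Among all genes 25.9% were lower and 24.9% higher, shares from which 4 genes are too few to be told apart. Of 4 measured, 0 were lower (also 0 at an unadjusted p below 0.05) and 2 were higher. These were SLC25A22, a glutamate carrier, at 0.56 and SLC25A13, an aspartate-glutamate carrier, at 0.42 in the authors' deposited table, both chosen after their values were seen.

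Of the tRNA synthetases for these amino acids, 5 of 6 cytosolic ones were lower and 1 was higher, with a median of -0.55. The shares over all genes were 25.9% lower and 24.9% higher. CARS, which charges cysteine, stood at -1.28, AARS, for alanine, at -1.08, EPRS, for glutamate and proline, at -0.57 and NARS, for asparagine, at -0.53 in the authors' deposited table. RARS, for arginine, was 1.44-fold higher, at 0.53 (SE 0.05, adjusted p = 1.92e-05) in the authors' deposited table, opposite to ASS1. Of the 6 mitochondrial synthetases, 1 was lower (16.7%, near the share of all genes) and 3 were higher, with a median of 0.09. For proline the intervals of PYCR1 and EPRS overlap.

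**Figure D5:**
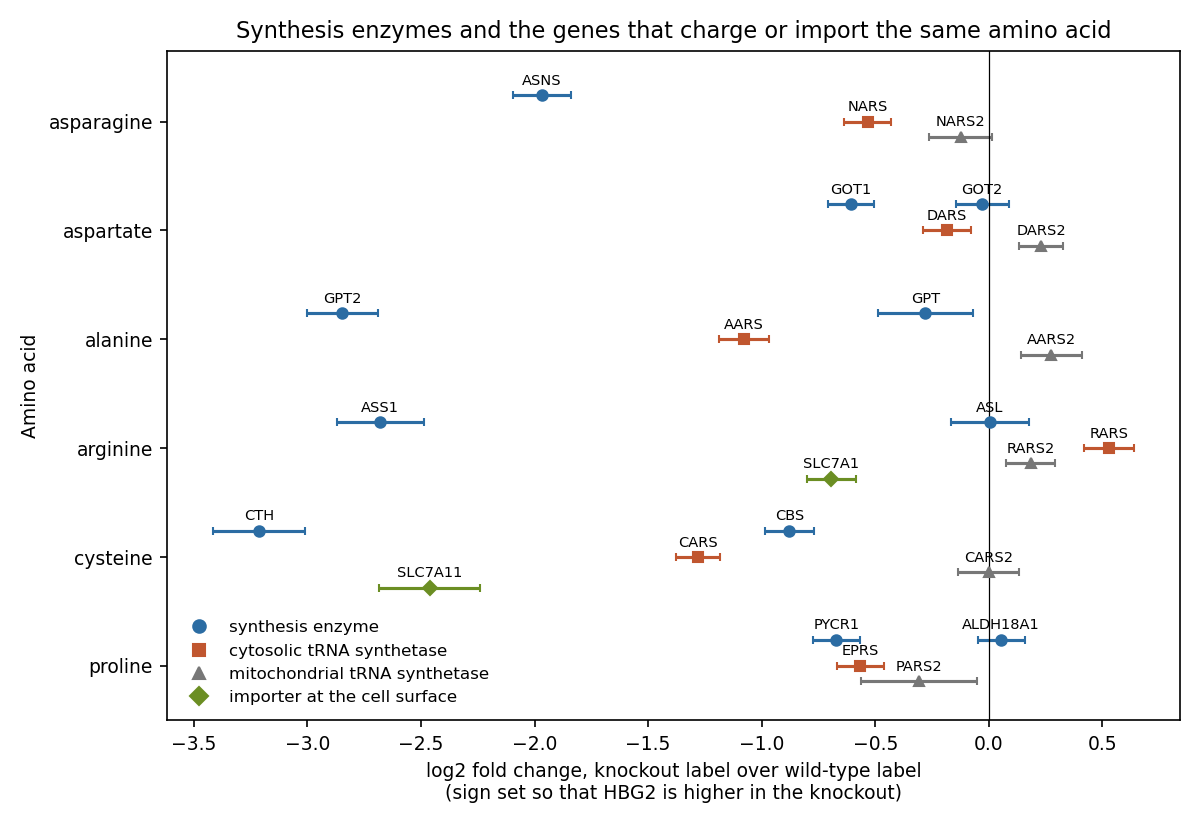
Log2 fold changes (x axis, sign set through HBG2) with derived 95% intervals for the genes of 6 amino acids (y axis): synthesis enzymes (circles), cytosolic (squares) and mitochondrial (triangles) tRNA synthetases, and importers (diamonds). The cytosolic synthetases lie between -1.28 and 0.53, and RARS is the one to the right of 0.

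Serine synthesis and the ATF4 circuit, the most similar groups, are given for comparison. Of 5 serine synthesis genes, 5 were lower, with a median of -1.85, and of 8 genes of the ATF4 circuit, 8 were lower, with a median of -1.93. In either list 0 were higher, also at an unadjusted p below 0.05. Over all genes 25.9% were lower and 24.9% higher. SHMT1 was the least lowered serine synthesis gene, at -0.18, and NUPR1 of the ATF4 circuit had a low mean of 0.94 log2 CPM in the authors' deposited table. ATF4 RNA stood at -0.88 (SE 0.05, adjusted p = 3.90e-07) in the authors' deposited table, next to CBS. No test compared these groups with the 9 enzymes.

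Cell identity was checked with marker genes. All 8 erythroid markers were measured, at means of 6.90 to 12.48 log2 CPM. Of 16 markers of other cell types, 4 were measured. ITGA2B, shared by megakaryocytes and their common progenitor with erythroid cells, was the only one above 1 log2 CPM. Its mean of 7.26 log2 CPM lay within the range of the erythroid markers. Of these 4, ALB, a liver marker, at 1.02 (adjusted p = 0.0186) and ARG1 (0.63, adjusted p = 0.0119) were called higher in the authors' deposited table, ALB at a mean of 0.88 log2 CPM. Of the erythroid markers, 5 were higher and 0 lower (also 0 at an unadjusted p below 0.05), with SLC4A1, the band 3 anion exchanger, at 1.77 and TFRC, the transferrin receptor, at 1.01 in the authors' deposited table. The part of this shift in the values of the 9 enzymes was not tested. Fewer cells with an RNA and less of it per cell cannot be told apart in bulk RNA.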

How the data were processed

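Total RNA of HUDEP-2 cells was isolated with Trizol, and an Illumina TruSeq RNA kit served to prepare libraries, per the labels' protocols. Tools listed in the submitters' processing notes are edgeR 2.6.12, HTSeq, TopHat2 2.0.4, Cuffdiff and SAMtools, beside the genome build hg19/GRCh37, without saying what each did. How genes were filtered and normalized, and how deeply each library was sequenced, is not stated in these sources.

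The deposited values are, per the file headers, log2 fold changes and mean log2 CPM, the F score of the test, and its p-value before and after adjustment. It holds 11976 genes and 3 rows that name no gene, which hold 21.5% of its CPM and were left out of all counts. No model was fitted again, and depth, batches and replicate agreement could not be examined. Deposited fold changes were multiplied by -1, as explained above. For the SE, the size of the log2 fold change was divided by √F. Intervals used a t distribution, whose 10.3 degrees of freedom were solved from F and p. Both are approximate. These steps were also run on simulated data, in which the relation between fold change, SE and F was taken as given. That run cannot show whether the relation holds for the authors' test.

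The members and lists were chosen with earlier results of these data known. Named genes were the 9 enzymes, HBG2, ERF, ATF4, isozymes and neighbouring enzymes, and up to 5 called genes of each list with the largest absolute fold change. Some genes that this rule names are not reported here. Exon lengths came from GENCODE 29, whose build differs from the authors', for 97.8% of genes. Python 3.11.15, SciPy 1.17.1 and pandas 2.3.3 were used. Alternatives changed the threshold, the adjustment, a filter on low genes, the centring, the fold tested and the sign.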

Additional observations from a re-analysis of the deposited data

How the results depend on the processing

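Apart from the sign, only the centring could alter a fold change, so under the other alternatives its direction was fixed in advance. Of 54 values of the 9 enzymes under alternatives other than the sign, 52 kept their side of the threshold. The other 2 came from a test against 1.5-fold, in which GOT1 (-0.61, adjusted p = 1) and PYCR1 (-0.67, adjusted p = 0.836) were no longer called. With the sign as deposited, 0 enzymes were lower and 7 higher, at 1.97 for ASNS, 2.68 for ASS1, 2.85 for GPT2, 3.21 for CTH, 0.88 for CBS, 0.61 for GOT1, 0.030 for GOT2, 0.67 for PYCR1 and -0.054 for ALDH18A1. Over all genes, 3105 lower and 2987 higher calls became 470 and 318 with Holm adjustment and 262 and 97 in the test against 1.5-fold. Subtracting the median of genes at or above 5 log2 CPM moved values by 0.03. Of 96 counts over the other lists, 73 stayed within 1.5 times. No paired analysis was possible because the table has no columns per library, and for the same reason no replicate could be left out. The unknown depth limits what can be said of genes with a low mean, such as SLC38A1 and ARG1.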

Other observations

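Within the proline and ornithine list, 5 of 11 measured genes were called higher and 1 lower. The shares over all genes were 24.9% and 25.9%. The 5 higher calls became 1 with Holm adjustment and 0 in the test against 1.5-fold. The 1 lower call became 0 in both. The genes of polyamine synthesis, grouped here after their values were seen and with no list test, are given as values. ODC1, ornithine decarboxylase, the entry step of polyamine synthesis, was 1.54-fold higher, at 0.63 (SE 0.06, adjusted p = 3.35e-05) in the authors' deposited table. SRM, spermidine synthase, stood at 0.40 and AMD1, which makes the aminopropyl donor, at 0.26, both called higher, in the authors' deposited table. OAZ2, an antizyme that holds ODC1 down, was also higher at 0.42, while AZIN1, an antizyme inhibitor chosen after its value was seen, was the 1 lower gene of the proline and ornithine list, at -0.22, in the authors' deposited table. SMS, spermine synthase, also chosen after its value was seen, stood at 0.13 (adjusted p = 0.0533). None of these genes changed by 2-fold, and with the sign as deposited their directions are exchanged together with those of the enzymes.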
